A study of Homo sapiens with 6 samples.

Results

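The genes described here are 34 genes of the ATF4 pathway, the amino acid arm of the integrated stress response, out of 58825 genes listed for PANC-1 cells. PANC-1 is a cell line from a human pancreatic ductal carcinoma. The genes were taken by name from a given list, each name matched 1 identifier, and all 34 passed the filter on low values that left 17774 genes for testing. RNA-seq was run on 3 PANC-1 samples treated with 40 μM maslinic acid (MA), a triterpenoid of olive, for 24 h (MA PANC-1) and on 3 samples at 0 μM (PANC-1). All 6 samples came from the same line under the same culture conditions, and the labels name no genetic change in either group. The study's methods name DMSO as the control of its MA treatments, without a separate statement for the RNA-seq samples. A single line and a single dose at a single time limit what the groups stand for. The study's methods call the samples of a group biological replicates, and the p-values measure the spread between them.

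The total of estimated counts was 56978375, 63984133 and 58181114 for MA PANC-1 1, 2 and 3, and 70275355, 65607669 and 59422939 for PANC-1 1, 2 and 3. These totals exceed the valid reads that the study's supplement lists for each sample, so they are not numbers of reads. Levels are given as FPKM, fragments per length of gene and sequencing depth, and can therefore be compared between genes. Keratin genes of simple epithelia were abundant in PANC-1, with mean FPKM of 212.8 for KRT8 and 324.7 for KRT18, and so was the mesenchymal gene VIM at 665.4. The other epithelial markers were near 0, with 0.0199 for KRT19 and 0.0930 for EPCAM, which goes against a full ductal marker set. The acinar genes PRSS1 and CPA1 and the islet genes INS and GCG were listed without reads in all 6 samples, while the acinar gene CEL was at 0.0233 to 0.208 FPKM over the 6 samples. Of the fibroblast markers, DCN was at 0.00364 FPKM in PANC-1 and COL1A1 at 4.51 ± 1.28, with 3.58 ± 0.935 in MA PANC-1 (SD, n = 3). PTPRC of leukocytes and PECAM1 and CDH5 of endothelium had means of at most 0.0210 FPKM in either group. In bulk RNA, fewer cells of a type and less RNA per cell cannot be told apart.

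Libraries differed within both groups. MA PANC-1 2 stood apart in its GC content, since its counts came from genes with a mean GC content of 51.2%, against 49.8% to 50.3% in the other 5 libraries. PANC-1 2 was the highest untreated library for 24 of the 34 genes, where 34.7% of all tested genes were highest in it, and PANC-1 3 was the lowest for 19, where 34.2% of all tested genes were lowest in it. On the first principal component MA PANC-1 2 stood apart, at -73.6 against -29.5 to 44.9 in the other 5 libraries. MA PANC-1 1 stood apart on the second, at 72.2 against -43.0 to 7.85 in the other 5 libraries. MA PANC-1 1 also had the lowest share of mitochondrial counts, 5.48% against 6.33% to 6.80%. Values without MA PANC-1 2 or PANC-1 2 are given for the genes whose call or direction depended on them.

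The integrated stress response begins when any of 4 kinases phosphorylates the translation initiation factor eIF2 on its alpha subunit. General translation then falls, while the ATF4 mRNA is translated better because of short reading frames ahead of its coding sequence. ATF4 protein binds with C/EBP partners at C/EBP-ATF response elements and activates genes for amino acid synthesis, amino acid import and tRNA charging, and genes that feed back on the response. Since ATF4 is controlled largely in translation, its mRNA level is not a measure of its protein, and neither protein nor phosphorylation is described here.

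The response element was searched as TGATGNAA on either strand in the RefSeq promoters of GRCh38.p14, from 250 bases before to 50 bases after each gene start. Promoters were listed for 27 of the 34 genes, 41 promoters in all. The letters occurred in 6 of these 41 promoters (14.6%), from 6 genes, and in 1270 of 35116 promoters in all (3.62%). The matches ahead of the start in ATF3, ASNS, CHAC1 and CEBPG are shown because they let genes that differed between the groups be set beside genes that did not. Each is a window of 30 bases with the matched letters in capitals, read 5′ to 3′ on the strand of the gene.
ATF3, chr1:212565205-212565234, + strand: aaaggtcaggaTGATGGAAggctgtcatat
CHAC1, chr15:40953251-40953280, + strand: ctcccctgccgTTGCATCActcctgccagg
ASNS, chr7:97872458-97872487, - strand: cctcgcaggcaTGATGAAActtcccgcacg
CEBPG, chr19:33374060-33374089, + strand: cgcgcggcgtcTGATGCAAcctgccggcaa

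The match began 191 bases before the start in ATF3, 209 in CHAC1, 68 in ASNS and 42 in CEBPG, and in CHAC1 it lay on the strand opposite to the gene. In SLC3A2 and SLC7A1 the match lay after the start. The windows of ASNS, CHAC1 and CEBPG lie before the RefSeq start but inside the span that the deposited table gives these genes, which begins further upstream. A match of letters is a description of the window and not a bound site. Some of the genes have several listed promoters, and which start is used in these samples was not tested. Of the 4 genes shown, ATF3 and CHAC1 were higher in all 3 MA PANC-1 samples than in any PANC-1 sample, whereas the samples of ASNS and CEBPG overlapped between the groups.

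In untreated PANC-1 cells most of these genes were strongly expressed. ATF4 had a mean of 235.5 ± 20.6 FPKM (SD, n = 3) and lay at the 99.4th percentile of the tested genes. PSAT1, the aminotransferase of serine synthesis, stood at 205.3 ± 7.87, the amino acid exchanger subunit SLC7A5 at 200.5 ± 12.2, and EIF4EBP1, a repressor of cap-dependent translation, at 151.2 ± 11.8. Every PANC-1 sample of ATF4 was above every PANC-1 sample of PSAT1 and SLC7A5, while PSAT1 and SLC7A5 overlapped. At the other end stood ATF3 with 4.25 ± 0.761, EIF2AK3 with 4.24 ± 0.488, ALDH1L2 with 2.46 ± 0.478 and NUPR1 with 0.932 ± 0.115. The 34 genes together held 0.782%, 0.869% and 0.778% of the estimated counts in PANC-1 1, 2 and 3, and 0.890%, 0.862% and 0.864% in MA PANC-1 1, 2 and 3. The share of PANC-1 2 thus lay among those of the treated samples.

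**Figure D1:**
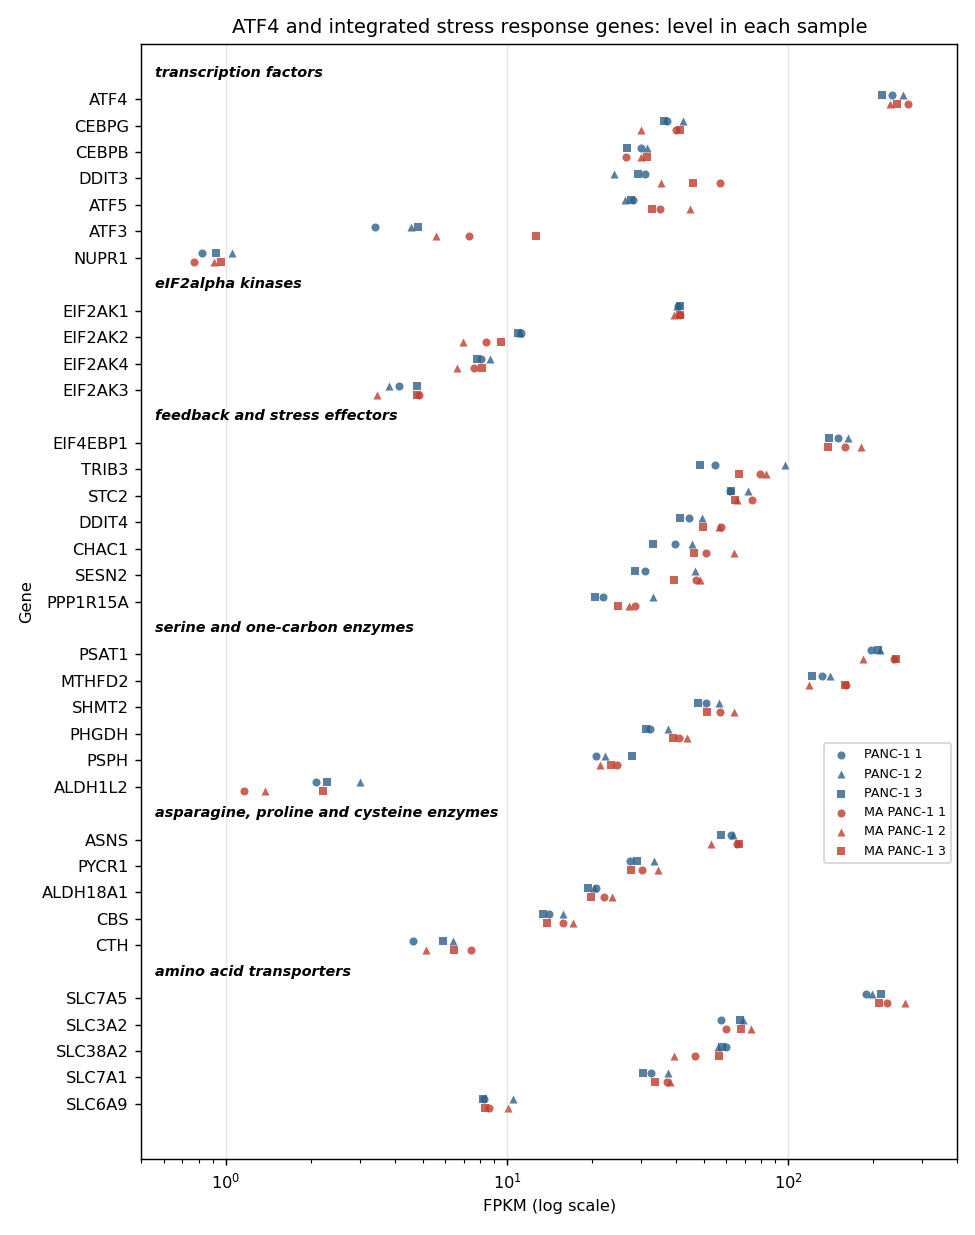
Level of each of the 34 genes in each sample, in FPKM on a log axis, with the genes ordered within their class. PANC-1 and MA PANC-1 points lay close together for most genes, from about 1 FPKM for NUPR1 to over 200 FPKM for ATF4.

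Across the 34 genes the largest differences between MA PANC-1 and PANC-1, with all samples, were in ATF3 and DDIT3, a pair of stress-induced transcription factors. Without MA PANC-1 3 the largest log2 fold change was that of ALDH1L2, at -0.89, against 0.77 for DDIT3 and 0.65 for ATF3. DDIT3, ATF3 and ATF5 were higher after MA, as were CHAC1, DDIT4 and PHGDH, while EIF2AK2 and ALDH1L2 were lower. These 8 genes had an unadjusted p under 0.05 in edgeR's quasi-likelihood test, 6 higher and 2 lower, where 11.2% of all tested genes had one, 5.37% higher and 5.86% lower. By the rule for DEGs, a fold of at least 2 or at most 0.5 with that unadjusted p, 1 of the 34 genes was a DEG, ATF3, which was higher. Of all tested genes 1.92% were DEGs, and 0.675% were DEGs that were higher. None passed after Benjamini-Hochberg adjustment over all tested genes in edgeR, where 0.0394% of genes passed and the lowest adjusted p among the 34 was 0.375. In DESeq2, 2 of the 34 passed, DDIT3 with an adjusted p of 0.0148 and ATF3 with 0.0263, where 1.27% of all tested genes passed, and in limma on log2(FPKM + 0.1) none did. The samples of the groups did not overlap in FPKM for 7 genes, 6 higher and 1 lower, and the background for this was 19.9% of all tested genes, 8.79% higher and 11.1% lower. In an exact two-sided permutation test, 3 samples against 3 cannot give a p below 0.1.

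The log2 fold change of MA PANC-1 against PANC-1 was above 0 for 28 of the 34 genes and below 0 for 6, where 49.8% of all tested genes were above 0. Its median was 0.13 over the 34 genes and -0.002 over all tested genes. Without MA PANC-1 2 the median over the 34 genes was 0.08, with 24 genes above 0 and 10 below, and after removal of each library's GC trend it was 0.06. The fold change stayed within 1.5-fold for 31 genes (91.2%), against 83.2% of all tested genes. The 95% confidence interval stayed within 2-fold for 31 genes as well, against 62.5% of all tested genes. For most of these genes the data therefore bound the difference to under 2-fold in either direction, and the exceptions were ATF3, DDIT3 and ALDH1L2. At a mean FPKM of at least 1, 33 of the 34 genes remained, against 11470 of the 17774 tested genes. The shares over all tested genes thus include more genes of low level, and genes of like level were not compared. ATF4, PSPH and SLC7A5 have pseudogenes close to them in sequence with which reads can be shared, so small differences in these genes are uncertain.

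**Figure D2:**
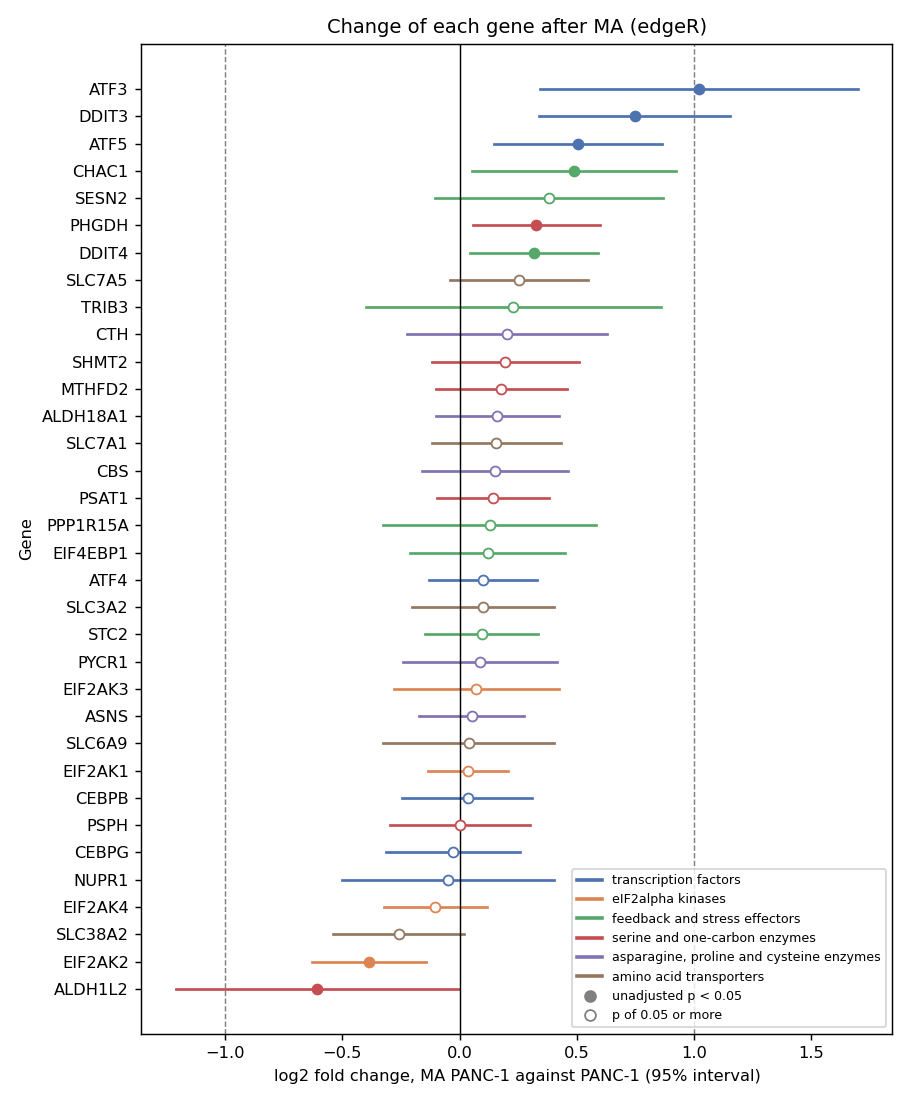
Log2 fold change of MA PANC-1 against PANC-1 for each gene (points) with its 95% confidence interval from edgeR (lines), coloured by class, with filled points for an unadjusted p under 0.05. Intervals of ATF3, DDIT3 and ALDH1L2 cross the dashed lines at 2-fold, and those of the other 31 genes stay inside them.

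ATF4 itself differed little. ATF4 (chr22:39519695-39522683), the central activator of the response, had 266.9, 229.9 and 243.3 FPKM in treated replicates 1, 2 and 3 and 234.2, 256.8 and 215.6 in PANC-1 1, 2 and 3. The groups overlapped. The log2 fold change was 0.10 (SE 0.10) with a 95% interval of -0.13 to 0.33, so a change of the mRNA by 1.5-fold lay outside the interval.

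Of the 7 transcription factors, ATF4 included, 3 had an unadjusted p under 0.05, all higher. Of all tested genes, 11.2% had one, 5.37% higher. The median log2 fold change of the transcription factors was 0.10. DDIT3 (chr12:57516588-57521737) encodes CHOP, a C/EBP family factor of prolonged stress. It had 56.99, 35.4 and 45.8 FPKM in treated replicates 1, 2 and 3 and 30.9, 24.0 and 29.1 in PANC-1. Every treated sample was above every untreated one, with replicate 2 the lowest in each group. The log2 fold change was 0.75 (SE 0.17), with an unadjusted p of 0.00326 and an adjusted p of 0.375 in edgeR.

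ATF3 (chr1:212565334-212620772), a stress-induced factor of the ATF/CREB family, is itself activated by ATF4 in many cell types. It had 7.30, 5.57 and 12.7 FPKM in treated replicates 1, 2 and 3 and 3.38, 4.55 and 4.81 in PANC-1. The groups did not overlap, but MA PANC-1 3 was more than 5 FPKM above the next sample. The log2 fold change was 1.02 (SE 0.29) with an unadjusted p of 0.00896, and leaving out MA PANC-1 3 gave 0.65, below the 2-fold limit for DEGs.

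ATF5 (chr19:49928702-49933935), a factor with upstream reading frames like those of ATF4, had 35.04, 44.8 and 32.7 FPKM in treated replicates 1, 2 and 3 and 27.99, 26.2 and 27.5 in PANC-1. The groups did not overlap, and MA PANC-1 2 was the highest sample. The log2 fold change was 0.51 (SE 0.15) with an unadjusted p of 0.0127, and 0.31 when MA PANC-1 2 was left out. The C/EBP partners of ATF4 and CHOP gave log2 fold changes of 0.03 for CEBPB and -0.03 for CEBPG, which turned to -0.02 and 0.07 without MA PANC-1 2. CEBPG was at 0.04 without PANC-1 2. NUPR1, a small stress-induced chromatin protein, gave -0.05 at under 1 FPKM in both group means, and 0.05 without PANC-1 2.

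**Figure D3:**
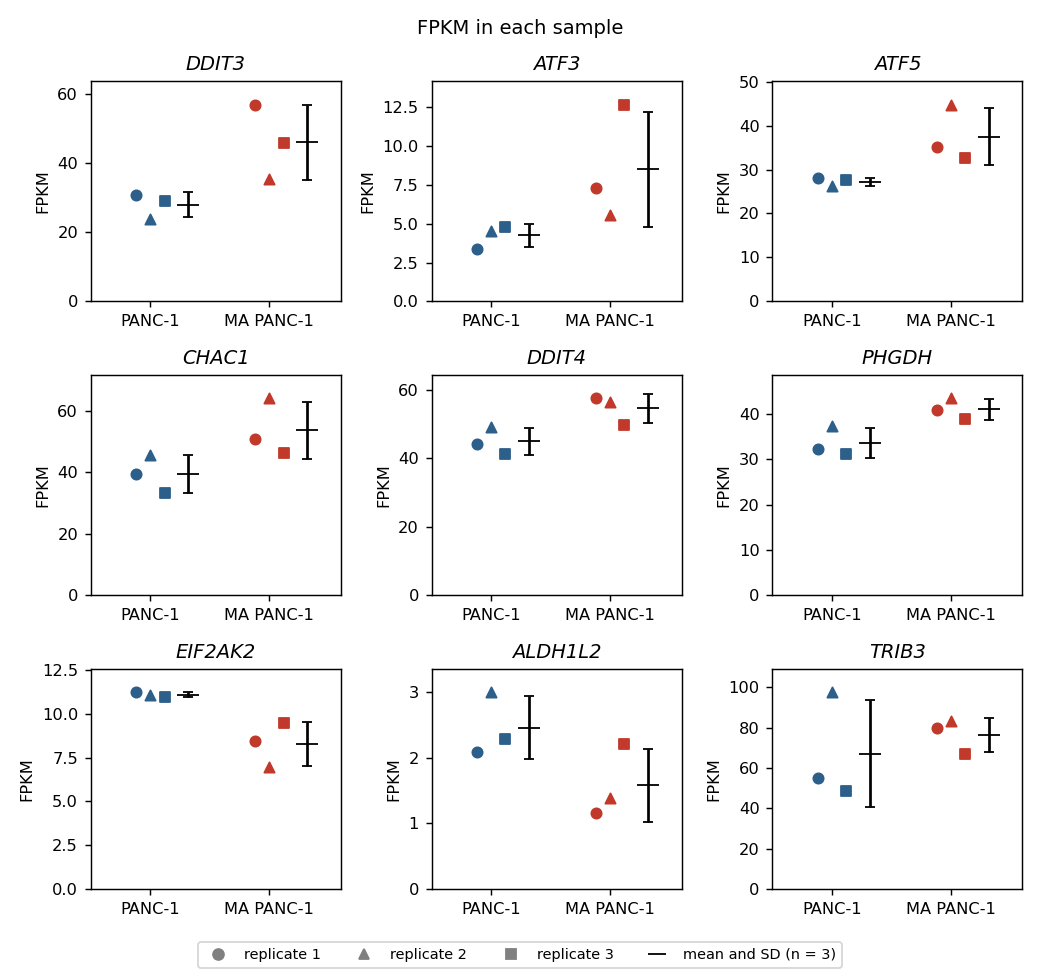
FPKM in each sample for the 8 genes with an unadjusted p under 0.05 and for TRIB3, with the marker shape giving the replicate and the bars the mean ± SD (n = 3). MA PANC-1 samples lie above all PANC-1 samples for DDIT3, ATF3, ATF5, CHAC1, DDIT4 and PHGDH and below them for EIF2AK2, and the groups overlap for ALDH1L2 and TRIB3.

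The 4 kinases of eIF2 were expressed at different levels. Of these, 1 had an unadjusted p under 0.05, lower after MA, where 11.2% of all tested genes had one, 5.86% lower. EIF2AK2 encodes PKR, the kinase activated by double-stranded RNA (chr2:37099210-37157065). It had 8.44, 6.97 and 9.48 FPKM in treated replicates 1, 2 and 3 and 11.2, 11.1 and 10.97 in PANC-1. All treated samples were lower than the closely spaced untreated samples, and MA PANC-1 2 was the lowest. On the log2 scale the difference was -0.39 (SE 0.10) with an unadjusted p of 0.00686 and an adjusted p of 0.388 in edgeR.

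EIF2AK1 encodes HRI, the kinase that responds to heme shortage and mitochondrial stress, and had the highest level of the 4 kinases. It had 41.4, 39.3 and 41.1 FPKM in the treated replicates and 40.5, 40.2 and 41.1 in PANC-1. The means of EIF2AK1 differed by less than the spread of either group, with a log2 fold change of 0.04 (SE 0.07). EIF2AK3, which encodes PERK, the kinase of the endoplasmic reticulum, had 4.85, 3.46 and 4.77 FPKM in the treated replicates and 4.13, 3.81 and 4.77 in PANC-1, a log2 fold change of 0.07 (SE 0.15). EIF2AK4, which encodes GCN2, the sensor of uncharged tRNA, had 7.63, 6.65 and 8.13 FPKM in the treated replicates and 8.07, 8.72 and 7.83 in PANC-1, a log2 fold change of -0.10 (SE 0.09). The samples of both kinases overlapped between the groups.

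All 7 feedback and stress effector genes had a log2 fold change above 0, with a median of 0.23, where 49.8% of all tested genes were above 0. Of the 7 genes, 2 had an unadjusted p under 0.05, both higher, where 11.2% of all tested genes had one, 5.37% higher. With each library's GC trend removed, EIF4EBP1 was at -0.03, PPP1R15A at 0.008, STC2 at 0.03 and TRIB3 at 0.10. DDIT4, SESN2 and CHAC1 were then at 0.20, 0.25 and 0.34. CHAC1 (chr15:40952962-40956512) encodes an enzyme that degrades glutathione. It had 50.9, 64.0 and 46.1 FPKM in treated replicates 1, 2 and 3 and 39.5, 45.6 and 33.1 in PANC-1. The lowest treated and the highest untreated sample differed by under 1 FPKM. CHAC1 gave a log2 fold change of 0.49 (SE 0.19) with an unadjusted p of 0.032. Without MA PANC-1 2 it was 0.30, with an unadjusted p of 0.0943. Without PANC-1 1 or PANC-1 3 the unadjusted p was 0.0724 or 0.104.

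DDIT4 (chr10:72273924-72276036) encodes REDD1, an inhibitor of mTORC1. It had 57.5, 56.6 and 49.8 FPKM in the treated replicates and 44.3, 49.2 and 41.3 in PANC-1. The groups came within 1 FPKM of each other without overlap. On the log2 scale the difference was 0.32 (SE 0.12) with an unadjusted p of 0.0278. That p was above 0.05 without MA PANC-1 1, MA PANC-1 2, PANC-1 1 or PANC-1 3.

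TRIB3, a pseudokinase that binds and restrains ATF4 and CHOP, showed how far the untreated samples could differ. It had 79.7, 83.1 and 67.0 FPKM in the treated replicates and 54.9, 97.6 and 48.7 in PANC-1 1, 2 and 3. PANC-1 2 was thus the highest of all 6 samples, while PANC-1 1 and 3 were the lowest. In that library TRIB3 was 1.89 times the mean of PANC-1 1 and 3. SESN2, a stress-induced inhibitor of mTORC1, stood at 1.57 times that mean, and PPP1R15A, which encodes the eIF2 phosphatase subunit GADD34, at 1.56 times. The log2 fold changes of these genes were 0.23 (SE 0.27) for TRIB3, 0.38 (SE 0.21) for SESN2 and 0.13 (SE 0.19) for PPP1R15A. Without PANC-1 2 they were 0.61 for TRIB3, 0.63 for SESN2 and 0.38 for PPP1R15A, with unadjusted p-values of 0.0071, 0.00503 and 0.0228, and 10 of the 34 genes were then under 0.05, 9 of them higher, where 7.72% of all tested genes were under 0.05 and 3.52% were higher. Without PANC-1 3 TRIB3 was at 0.04 and SESN2 at 0.25, and the value of PPP1R15A rounded to 0. Without PANC-1 1 they were 0.10 for TRIB3, 0.29 for SESN2 and 0.035 for PPP1R15A. EIF4EBP1 gave a log2 fold change of 0.12, and -0.02 without MA PANC-1 2, and the secreted glycoprotein gene STC2 gave 0.09.

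The 6 genes of serine synthesis and mitochondrial one-carbon metabolism had a median log2 fold change of 0.16. PHGDH (chr1:119648411-119744226), the dehydrogenase of the first step of serine synthesis, had 40.9, 43.5 and 38.8 FPKM in the treated replicates and 32.2, 37.5 and 31.2 in PANC-1. The groups did not overlap, and replicate 2 was the highest sample of each. PHGDH gave a log2 fold change of 0.33 (SE 0.12) with an unadjusted p of 0.0241. That p was above 0.05 without MA PANC-1 2, PANC-1 1 or PANC-1 3. The later steps of serine synthesis gave 0.14 for PSAT1 and 0.002 for PSPH, the phosphatase, which was at -0.04 without PANC-1 2. SHMT2, which splits serine in mitochondria, gave 0.20 and, without MA PANC-1 2, 0.07. MTHFD2, which oxidises the folate-bound carbon, gave 0.18.

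ALDH1L2 (chr12:105019784-105084458), a mitochondrial enzyme that oxidises formyl-folate, had 1.16, 1.38 and 2.21 FPKM in treated replicates 1, 2 and 3 and 2.09, 3.00 and 2.30 in PANC-1. MA PANC-1 3 lay between PANC-1 1 and PANC-1 3, so the groups overlapped. On the log2 scale the difference was -0.61 (SE 0.26) with an unadjusted p of 0.049, and it depended on single libraries. Without MA PANC-1 1 or 2 it was -0.42 or -0.55 (unadjusted p of 0.137 or 0.125), and without PANC-1 2 or 3 it was -0.44 or -0.66 (unadjusted p of 0.162 or 0.0729). Removal of each library's GC trend gave -0.49 (unadjusted p of 0.085).

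No gene of asparagine, proline and cysteine synthesis had an unadjusted p under 0.05, where 11.2% of all tested genes had one. All 5 had a log2 fold change above 0, where 49.8% of all tested genes did. With each library's GC trend removed, PYCR1 was at -0.06 and the other genes of the 5 stayed above 0. ASNS, asparagine synthetase and a standard reporter of ATF4 activity, had 65.8, 53.2 and 67.0 FPKM in treated replicates 1, 2 and 3 and 62.3, 63.7 and 57.5 in PANC-1. MA PANC-1 2 was the lowest of all 6 samples and the groups overlapped. ASNS gave a log2 fold change of 0.05 (SE 0.10) with a 95% interval of -0.18 to 0.28. The proline enzymes gave 0.16 for ALDH18A1 and 0.09 for PYCR1, and 0.06 and -0.05 without MA PANC-1 2. CTH, which makes cysteine from cystathionine, gave 0.20, and 0.08 without PANC-1 1 or 0.09 without MA PANC-1 1. CBS, which makes cystathionine, gave 0.15. CBS shares reads with its near-identical copy CBSL, whose estimated counts ranged from 0 to 5159 between samples, and the summed counts gave 0.11 (SE 0.21), so the value of CBS is uncertain. Without MA PANC-1 2 CBS was at 0.03.

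The 5 amino acid transporters had a median log2 fold change of 0.10. SLC7A5 and SLC3A2, the light and heavy chain of the exchanger of large neutral amino acids, gave 0.25 (SE 0.13) and 0.10 (SE 0.13), and 0.12 and -0.02 without MA PANC-1 2. The cationic amino acid carrier SLC7A1 gave 0.16 and the glycine carrier SLC6A9 gave 0.04, and 0.08 and -0.09 without MA PANC-1 2. SLC38A2, a sodium-coupled carrier of small neutral amino acids, had the lowest value of the class, -0.26 (SE 0.12), with an unadjusted p of 0.0634. It had 46.8, 39.1 and 56.8 FPKM in treated replicates 1, 2 and 3 and 60.3, 56.2 and 58.1 in PANC-1. MA PANC-1 3 overlapped the untreated samples and MA PANC-1 2 was the lowest. Without MA PANC-1 2 the log2 fold change of SLC38A2 was -0.17 with an unadjusted p of 0.121. Without MA PANC-1 3 it was -0.38 with an unadjusted p of 0.00562. SLC7A5 was then at 0.34 with an unadjusted p of 0.0307, where 18.1% of all tested genes were under 0.05.

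GC content moved with these values in MA PANC-1 2. Of the 15 genes with a GC content above 55%, 14 were higher in MA PANC-1 2 than in the mean of MA PANC-1 1 and 3 (log2 CPM). Of the 15 genes below 50%, 13 were lower there, and the 4 genes between were all higher. Pearson's r between this deviation and GC content was 0.81 across the 34 genes and 0.31 across 17721 genes, as a description across genes that share a library. For MA PANC-1 3 against the mean of MA PANC-1 1 and 2, r was -0.70 across the 34 genes and -0.25 across 17721 genes. That mean holds MA PANC-1 2, so this r is not independent of the first. Taken in the same way, each library against the others of its group, r across the 34 genes was -0.20 for MA PANC-1 1. It was -0.001, 0.36 and -0.44 for PANC-1 1, 2 and 3. Across 17721 genes r was between -0.08 and 0.06 for these libraries.

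When the GC trend of each library was removed, a setting chosen after seeing the data, 8 of the 34 genes again had an unadjusted p under 0.05, and all 8 were higher, where 13.9% of all tested genes were under 0.05 and 7.3% were higher. EIF2AK2 was then at -0.15 with an unadjusted p of 0.0745 and SLC38A2 at -0.01, while PSAT1 was at 0.27 (unadjusted p of 0.00352) and MTHFD2 at 0.33 (unadjusted p of 0.00712). DDIT3 at 0.71 and ATF3 at 1.03 changed little, and ATF5, CHAC1 and DDIT4 went to 0.35, 0.34 and 0.20. The log2 fold change was above 0 for 22 of the 34 genes with the trend removed. Without MA PANC-1 2 the genes under 0.05 were 6, with DDIT3, ATF3, ATF5, PSAT1 (0.23) and MTHFD2 (0.28) higher and EIF2AK2 lower at -0.31, where 10.3% of all tested genes were under 0.05 and 4.51% were higher. CHAC1, DDIT4 and PHGDH were then at 0.30, 0.25 and 0.24, with unadjusted p-values of 0.0943, 0.0653 and 0.0539. The unadjusted p-values of these genes were also above 0.05 without PANC-1 1, at 0.0724, 0.0804 and 0.084, and without PANC-1 3, at 0.104, 0.098 and 0.0885, and that of DDIT4 without MA PANC-1 1, at 0.0806. Without PANC-1 1 or PANC-1 3, 5 or 4 of the 34 genes were under 0.05, where 6.63% or 6.76% of all tested genes were.

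**Figure D4:**
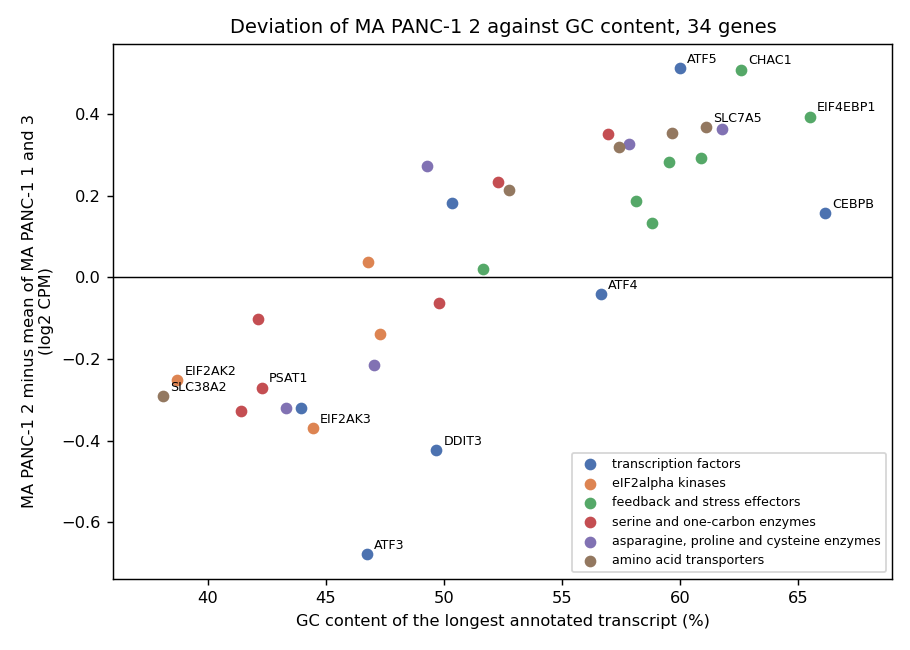
Log2 CPM of MA PANC-1 2 minus the mean of MA PANC-1 1 and 3 for each of the 34 genes (vertical axis) against the GC content of its longest annotated transcript (horizontal axis, %), coloured by class. Points rise from left to right, with 13 of 15 genes below 50% under the zero line and 14 of 15 genes above 55% over it.

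Neighbouring parts of the response were counted in lists beside the 34 genes. Of 16 other textbook targets of ATF4 or CHOP, 3 (18.8%) had an unadjusted p under 0.05 and all 3 were higher, and 2 were DEGs. The background over all tested genes, for this list and those that follow, was 11.2%, with 5.37% higher, 5.86% lower and 1.92% DEGs. The list had a median log2 fold change of 0.17. GPT2, the mitochondrial alanine aminotransferase, had 13.1, 12.8 and 7.39 FPKM in treated replicates 1, 2 and 3 and 5.58, 5.68 and 5.56 in PANC-1. All treated samples exceeded the closely spaced untreated ones. GPT2 was a DEG, with a log2 fold change of 1.03 (SE 0.23), an unadjusted p of 0.0026 and an adjusted p of 0.364 in edgeR. FGF21, a stress-induced hormone, was a DEG at 1.25 (SE 0.46, unadjusted p of 0.028) but at under 0.5 FPKM in every sample. HMOX1, heme oxygenase, which other stress factors also control, gave 0.53 (unadjusted p of 0.0159).

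The machinery around eIF2 showed small differences. Of its 14 genes 1 had an unadjusted p under 0.05, EIF2B4, a subunit of the exchange factor eIF2B, at 0.31 (unadjusted p of 0.034). The median of this list was -0.07. Of the 20 genes for cytosolic aminoacyl-tRNA synthetases, which charge tRNAs and include many ATF4 targets, 1 was higher and 2 were lower. CARS gave 0.20 (unadjusted p of 0.0494), while NARS gave -0.30 (unadjusted p of 0.025) and EPRS -0.35 (unadjusted p of 0.039). MA PANC-1 2 was the lowest sample for NARS and EPRS, at 43.9 and 25.9 FPKM. The GC contents of NARS and EPRS were 44.3% and 43.2%, against 51.9% for CARS. The median of the synthetases was 0.06, and all 20 stayed within 1.5-fold. The count of 3 synthetases fell to 0 without any 1 of the PANC-1 libraries, to 1 without MA PANC-1 1 and rose to 6 without MA PANC-1 3. The share of all tested genes moved the same way, to 6.63%, 7.72% and 6.76% without PANC-1 1, 2 and 3, to 7.93% without MA PANC-1 1 and to 18.1% without MA PANC-1 3.

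Of 12 other amino acid transporters 10 were tested, and 1 had an unadjusted p under 0.05. This was SLC1A4, a carrier of alanine, serine and cysteine, with 35.6, 37.5 and 33.0 FPKM in the treated replicates and 25.0, 30.6 and 25.9 in PANC-1. The groups did not overlap, and the log2 fold change was 0.42 (SE 0.12, unadjusted p of 0.0102). The list had a median of 0.005.

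Of 11 genes of folate and proline metabolism, the serine carrier SFXN1 included, outside the 34 genes 9 were tested, with a median of -0.03, and 1 had an unadjusted p under 0.05. This was ALDH4A1, an enzyme of proline breakdown, with 14.3, 8.76 and 11.7 FPKM in the treated replicates and 8.31, 5.64 and 9.17 in PANC-1. MA PANC-1 2 lay below PANC-1 3, so the groups overlapped. ALDH4A1 gave a log2 fold change of 0.62 (SE 0.22, unadjusted p of 0.0252), and the call was lost without MA PANC-1 1 or PANC-1 2.

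Of 19 paralogs of the 34 genes 14 were tested, and 1 had an unadjusted p under 0.05. STC1, the paralog of STC2, had 2.69, 1.93 and 3.18 FPKM in the treated replicates and 6.85, 6.47 and 6.41 in PANC-1. All treated samples were below all untreated ones, with a log2 fold change of -1.31 (SE 0.17), an unadjusted p of 0.000102 and an adjusted p of 0.107 in edgeR. STC2 was at 68.3 ± 5.43 FPKM in MA PANC-1 and 65.6 ± 5.60 in PANC-1 (SD, n = 3).

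**Figure D5:**
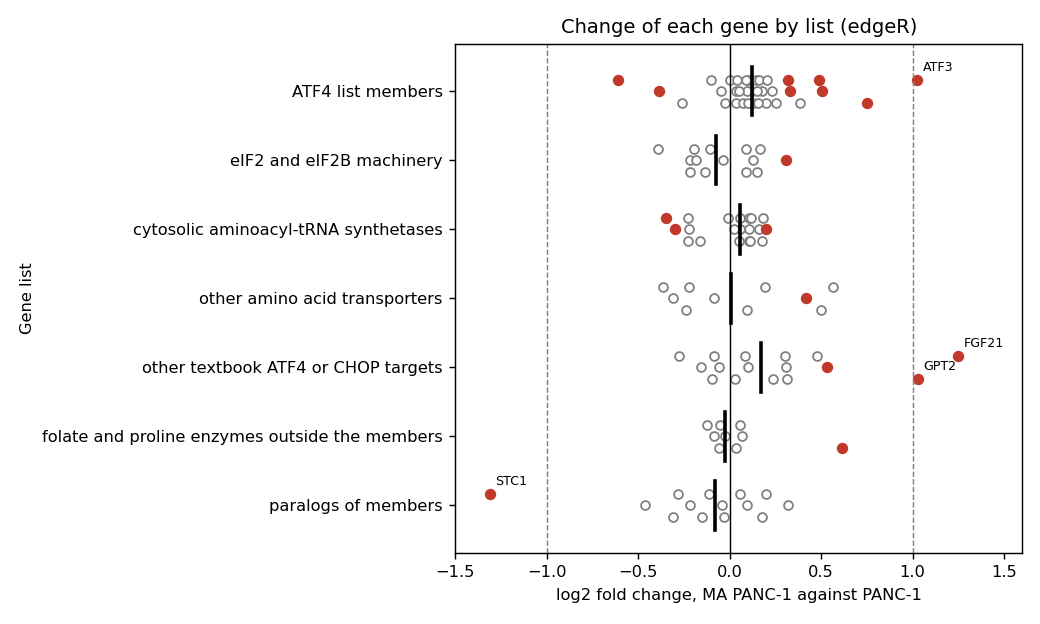
Log2 fold change of MA PANC-1 against PANC-1 for each tested gene of the 34 genes and of 6 neighbouring lists, with filled points for an unadjusted p under 0.05, a black bar at the median of each list and dashed lines at 2-fold. GPT2 and FGF21 lie past 2-fold on the higher side with ATF3, and STC1 lies past it on the lower side.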

How the data were processed

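RNA-seq of 3 MA PANC-1 and 3 PANC-1 samples was grouped by treatment per the labels. The authors deposited an FPKM value per gene and sample, with 0.0001 for a gene without reads, and an estimated count as a whole number without normalization. The submitters' processing notes name cutadapt 1.9, HISAT2 2.0.4, StringTie 1.3.4d, edgeR and DESeq2. The genome build was not given in the sources used here. Of 58825 gene positions, 58513 overlapped GENCODE 29 on GRCh38.

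Counts were tested in edgeR 4.0.16 (R 4.3.3) by the quasi-likelihood test with TMM normalization, keeping genes whose mean FPKM was 0.1 or more, and p-values were adjusted by Benjamini-Hochberg over all tested genes. SE is the log2 fold change over the root of F. Since estimated counts are not independent molecules, precision rests on the spread between replicates. Alternatives were DESeq2 1.42.0, limma 3.58.1 on log2(FPKM + 0.1), other filters, upper quartile scaling, a replicate block, summed overlapping genes, leaving out each sample, and, after seeing the data, GC trend removal. The steps were tested on simulated data. Members and lists were chosen with earlier results of these data known. Sample values are given for members with an unadjusted p under 0.05, the 4 eIF2 kinases, ATF4, DDIT3, ATF3, ASNS, CHAC1 and TRIB3, and list genes under that p are named. Sample values of SLC38A2 and the library ratios of TRIB3, SESN2 and PPP1R15A were added after their values were seen. A gene of the folate and proline list is not reported here.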

Additional observations from a re-analysis of the deposited data

How the results depend on the processing

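DDIT3, ATF3 and ATF5 kept their direction and an unadjusted p under 0.05 in all 14 alternatives, with log2 fold changes of 0.58 to 0.88, 0.65 to 1.23 and 0.31 to 0.62. EIF2AK2 did so in 13, CHAC1 and PHGDH in 11, DDIT4 in 10, ALDH1L2 in 9. EIF2AK1 turned to -0.001 in limma. TRIB3 passed in 1, without PANC-1 2. Of all tested genes, 7 passed adjustment in edgeR, against 226 in DESeq2, 33 with the GC trend removed, 12 at a mean FPKM of at least 1, and 3 to 24 when each sample was left out (24 without MA PANC-1 2, 4 without MA PANC-1 1, 3 without PANC-1 2). DEGs numbered 342, against 93 at a mean FPKM of at least 1, 569 with no filter, and 326 to 534 when each sample was left out (534 without MA PANC-1 3). The 34 genes held 1 DEG, against 0 in limma and 0 to 1 when each sample was left out (0 without MA PANC-1 3 or PANC-1 1). Their 8 genes with an unadjusted p under 0.05 became 4 to 10, with 4 without PANC-1 3 (6.76% of all tested genes), 5 without PANC-1 1 (6.63%), 6 without MA PANC-1 1 (7.93%) and 10 without MA PANC-1 3 (18.1%). Leaving out each sample gave 0 to 6 synthetases, 0 to 2 genes of the eIF2 machinery (0 without MA PANC-1 1 or 2 or PANC-1 1 or 3, and 2 without MA PANC-1 3), 0 to 1 folate and proline genes (0 without MA PANC-1 1 or PANC-1 2), 1 to 3 other transporters (3 without MA PANC-1 3, 2 without PANC-1 2 or 3), 1 to 4 other targets (1 without PANC-1 1) and 1 to 2 paralogs (2 without MA PANC-1 3). The eIF2 machinery gave 2 in DESeq2, limma, both filters, upper quartile scaling and GC trend removal. Other transporters gave 2 in DESeq2, 2 with no filter and 3 with the GC trend removed, and paralogs gave 4 with the GC trend removed. Of all tested genes, 10.3% were under 0.05 without MA PANC-1 2, 7.72% without PANC-1 2, 12.1% in DESeq2 and 13.9% with the GC trend removed. The cause of these changes in count was not tested.

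With the replicate number as a block, 0 genes passed adjustment, 10 of the 34 genes had an unadjusted p under 0.05 (7 higher, 3 lower), where 12.5% of all tested genes had one, and none was a DEG. The block added SESN2 at 0.41 (unadjusted p of 0.0151) and SLC38A2 at -0.27 (unadjusted p of 0.0497). The block gave 2 genes of the eIF2 machinery, 3 other transporters, 5 other targets and 2 paralogs. Deviations of samples with the same number correlated at 0.03, 0.05 and 0.07, so the numbers were not taken to pair the samples, although each sample correlated best with its own number. With 3 samples per group, adjusted calls among the 34 genes depend on the tool.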
